A study of Mus musculus with 10 samples.

Results

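Mitosis and cytokinesis genes were followed in mouse brain at 8 weeks and at 1 week of age. The set was given as a list of 42 genes by symbol, and its members on the array were all probe sets that the array annotation gives to 1 of these symbols alone. Of the 42 genes, 39 had such a probe set, and none was found for Ccnb1, Cdca8 and Chaf1a. The 39 genes were read by 67 probe sets, of 22626 on the array after its controls were left out, and they are 39 of the 12393 genes with such a probe set. Brains of C57BL/6 mice, an inbred laboratory strain, had been hybridised as total RNA to the Affymetrix MOE430A array, which reads a transcript with short oligonucleotides, 1 array a brain. There were 4 arrays at 8 weeks, 2 labelled female and 2 labelled male, and 6 arrays at 1 week, 3 of each label. No genotype, treatment or dissection beyond brain was given for any of these groups. The labels number the brains without saying whether each number is an animal of its own, so p-values here measure only the spread between these samples.

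A cell that divides builds a spindle of microtubules, attaches each chromosome to it at the kinetochore, waits at the spindle checkpoint until all are attached, and then cleaves in cytokinesis. Cyclin and Cdk1 kinase drive entry into mitosis, and the anaphase-promoting complex, a ubiquitin ligase, ends it. Most of these genes are transcribed late in the cell cycle and are silent in cells that have left it, so in tissue their transcripts mark dividing cells. In the mouse brain the first week after birth includes the division of granule cell progenitors in the cerebellum and of glial precursors throughout, while most neurons of the adult brain no longer divide.

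Arrays were unevenly bright as deposited (trimmed means of 255 to 318 at 8 weeks and of 138 to 236 at 1 week), and quantile normalization was applied. Correlations between arrays ran from 0.933 to 0.951 between ages and from 0.973 to 0.981 within groups. The sex markers went with the labels at 8 weeks and against them on 4 of 6 arrays at 1 week, replicates 1 and 2 labelled female and replicates 2 and 3 labelled male. Replicate 3 labelled female at 1 week carried Xist and the Y-linked Eif2s3y together. The main counts below are therefore also given without these 4 arrays and without all 5, and "the 4 arrays" below means those that oppose their label. The summed level of 8 neuron markers was 15383 to 15675 at 8 weeks and 9100 to 10903 at 1 week, and all 8 were above background at both ages. Levels below are normalized intensities, a relative brightness with no absolute unit, with means ± SD over the 4 arrays at 8 weeks and the 6 at 1 week, and changes are log2 differences ± SE. The background level, 73.9, is the 40th percentile of the mean log2 values of all probe sets, and a gene counts as above it at an age when its mean log2 over the arrays of that age is higher. Of 39 measured genes of other tissues, such as sperm, eye lens and pancreas, 10 were above that level at 8 weeks and 9 at 1 week, so the level is not a detection limit. A gene is given by its brightest probe set, and its 8-week values are listed as replicates 1 and 2 labelled female and then replicates 1 and 2 labelled male.

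Of the 39 genes, 10 were above background at 8 weeks and 28 at 1 week. Over all probe sets the share above background was 59.9% at 8 weeks and 59.8% at 1 week. Above background at 1 week and not at 8 weeks were 19 of the 39 genes, and 3.33% of all probe sets. By probe set, the unit of these shares, 12 of the 67 were above background at 8 weeks and 35 at 1 week. At 1 week and not at 8 weeks there were 24. The gene counts take the brightest probe set of each gene, which the shares do not. A single gene, Anln, was above background at 8 weeks and not at 1 week, 9 genes were above it at both ages and 10 at neither. The genes nearest to the level at 8 weeks were Cenpf, just above it with a mean intensity of 81.2, and Aurka, just below it with 67.8. At 1 week Cenpa stood nearest above it, with a mean of 78.3. The median of the 39 mean levels was 29.9 at 8 weeks and 110.4 at 1 week.

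Age was tested with limma on log2 intensities, as 8 weeks minus 1 week, with p-values adjusted by the Benjamini-Hochberg method over all 13576 probe sets that passed an intensity filter at the same level. Only 17 of the 39 genes passed that filter, which takes the mean over all 10 arrays and so leaves out genes dim at both ages and some that are dim at 1 age. Of these 17, 14 fell, Anln rose, and Foxm1 and Cdca3 did not pass the test. Among those that fell, Cdk1, Cks2, Aurka, Mad2l1, Top2a, Nusap1 and Prc1 were below background at 8 weeks and passed the filter through their 1-week arrays. Anln was below background at 1 week and passed through its 8-week arrays. The filter thus favours genes with a large difference, and the counts among the 17 are not independent of it. Among all 13576 probe sets, 24.0% were lower and 22.1% higher at 8 weeks. To account for the other 22 genes the model was also fitted to all 22626 probe sets, a choice made after seeing the data. In that fit 33 of the 39 genes were lower and 1 was higher, where 15.3% of all probe sets were lower. The change was below 0 in 38 of the 39, with a median of -0.90 on the log2 scale against -0.01 for all probe sets. For 31 genes every 8-week array was below every 1-week array, and 12.7% of all probe sets showed this. By probe set, the unit of these shares, 17 of the 22 tested were lower and 1 was higher. In the fit of all probe sets 46 of the 67 were lower and 1 was higher, and 42 were lower without overlap of arrays. Bub1, Cdc20, Cenpf, Spc25, Top2a, Kif22, Kif23 and Prim1 each had a dimmer probe set that did not pass in the fit of all probe sets, while their brightest did. Without the 4 arrays whose sex markers oppose their label and with age as the only term, 10 member probe sets were lower and 1 was higher. Without the array with both markers as well, which leaves 1 array at 1 week, 7 were lower and 1 was higher. Without normalization, which shifts the median change of all probe sets to 0.47, 10 were lower and 4 higher, and Anln, Foxm1 and Cdca3 were the genes higher there by their brightest probe set. The array reads RNA of whole tissue, so fewer dividing cells and less RNA per cell cannot be told apart.

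**Figure D1:**
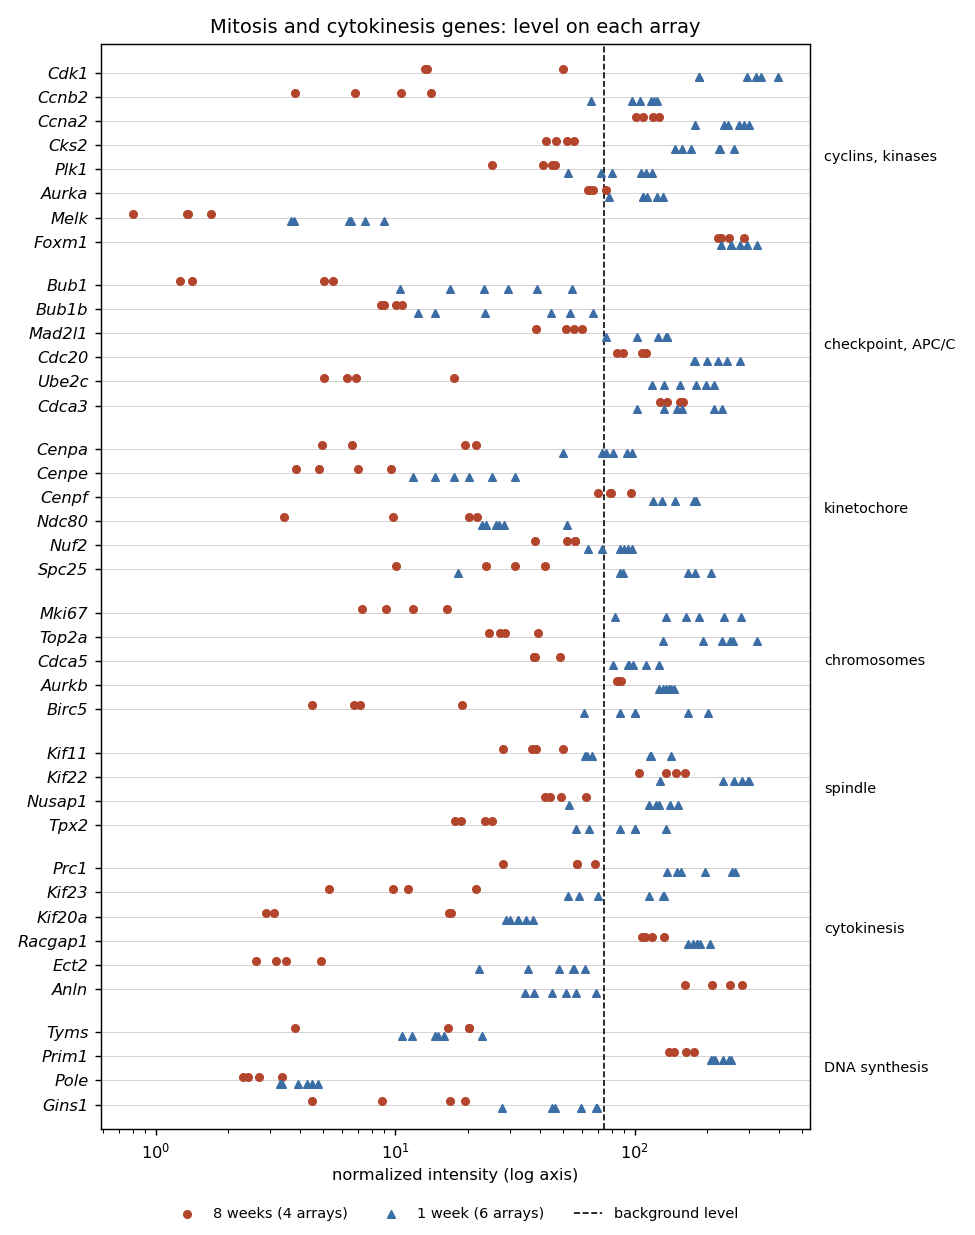
Normalized intensity (log axis) of each of the 39 genes by its brightest probe set, grouped by role, with 1 point for each array at 8 weeks (circles, 4 arrays) and at 1 week (triangles, 6 arrays). The dashed line is the background level of 73.9. Most circles lie left of the triangles of the same gene, and the circles of Anln lie right of its triangles.

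Promoters were examined because most measured members changed in the same direction. Many genes of late cell cycle transcription carry a CHR element, the cell cycle genes homology region bound by the MuvB complex, and CCAAT boxes, bound by NF-Y. RefSeq promoter windows on mouse build GRCm38.p6, from 250 bases before to 50 bases after each gene's start, were matched for 35 of the 42 genes. Ccna2, Foxm1, Aurkb, Tpx2, Kif20a, Pole and Gins1 were not matched. The 35 include Ccnb1, Cdca8 and Chaf1a, which had no probe set, and Anln, which rose, so the shares below are not those of falling genes alone. TTTGAA or TTCGAA, the CHR letters searched here on both strands, occurred in 24 of 35 windows, 68.6%, and in 19.4% of the windows of all 27025 genes. CCAAT on either strand occurred in 26 windows, 74.3%, and in 37.9% of all, and both motifs in 60% and in 7.70%. By their letters the motifs can share a single base at most. The 150 bases before the start are shown for the 5 genes with the steepest log2 falls in the fit of all probe sets, Cdk1 (chr10:69352913-69353062, minus strand), Ube2c (chr2:164769779-164769928, plus strand), Mki67 (chr7:135716380-135716529, minus strand), Top2a (chr11:99024190-99024339, minus strand) and Birc5 (chr11:117849087-117849236, plus strand), and for the gene that rose, Anln (chr9:22389207-22389356, minus strand). They read 5′ to 3′ along the gene, in RefSeq's sequence for GRCm38.p6, with CHR letters and CCAAT, or ATTGG on the other strand, in capitals.
Cdk1: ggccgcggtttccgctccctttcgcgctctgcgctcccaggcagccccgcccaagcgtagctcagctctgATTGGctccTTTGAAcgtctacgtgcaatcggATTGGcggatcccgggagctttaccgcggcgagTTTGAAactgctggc
Ube2c: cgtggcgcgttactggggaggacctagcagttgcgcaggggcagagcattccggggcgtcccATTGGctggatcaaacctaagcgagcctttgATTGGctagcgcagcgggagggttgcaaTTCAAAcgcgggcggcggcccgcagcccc
Mki67: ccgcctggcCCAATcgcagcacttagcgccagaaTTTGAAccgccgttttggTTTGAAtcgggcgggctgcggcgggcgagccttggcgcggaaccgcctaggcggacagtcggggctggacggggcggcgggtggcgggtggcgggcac
Top2a: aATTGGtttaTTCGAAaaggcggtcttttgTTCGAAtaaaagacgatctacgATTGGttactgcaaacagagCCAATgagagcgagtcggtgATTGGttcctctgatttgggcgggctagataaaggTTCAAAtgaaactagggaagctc
Birc5: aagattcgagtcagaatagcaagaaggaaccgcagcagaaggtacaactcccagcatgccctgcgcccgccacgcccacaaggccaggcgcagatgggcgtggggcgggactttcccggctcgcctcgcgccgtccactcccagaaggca
Anln: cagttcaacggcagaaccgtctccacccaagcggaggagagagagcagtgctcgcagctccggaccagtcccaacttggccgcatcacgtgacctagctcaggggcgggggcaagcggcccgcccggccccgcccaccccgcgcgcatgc
Cdk1, Ube2c, Mki67 and Top2a each held both motifs in the printed stretch. Neither motif occurred there in Anln, whose window held CHR letters at positions 22 and 29 after its start, or anywhere in the window of Birc5. The printed genes do not stand for the set. Aurka, Bub1 and Cenpa, which fell, also held CHR letters only after the start, and Mad2l1, Nusap1 and Nuf2, which fell, held neither motif in the window. A match of letters is a description of the sequence, and binding was not measured here.

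Cyclins, mitotic kinases and their regulators had 8 measured genes. Of these, 2 were above background at 8 weeks and 7 at 1 week, and 5 passed the filter, of which 4 fell and Foxm1 did not pass the test. Cdk1, the kinase that drives entry into mitosis, had intensities of 50.1, 13.2, 13.4 and 13.5 at 8 weeks and, at 1 week, a lowest of 185, a median of 306 and a highest of 395. All 4 arrays at 8 weeks were below background and all 6 at 1 week above it, and replicate 1 labelled female stood above the other three at 8 weeks. The mean was 22.6 ± 18.4 (SD, n = 4) at 8 weeks and 286 ± 84.6 (SD, n = 6) at 1 week, a log2 change of -2.75 ± 0.24 (limma, adjusted p = 1.45e-05). This was the steepest fall of the set on the log2 scale, where 24.2 was added to each intensity. By the ratio of the 1-week mean to the 8-week mean, Ube2c (18.6), Mki67 (16.1), Ect2 (13.1) and Birc5 (12.8) fell more than Cdk1 (12.7), with 8-week means far below background. Ccna2, cyclin A2, which acts in S phase and early mitosis, read 127, 119, 108 and 101 at 8 weeks, against a lowest of 178, a median of 258 and a highest of 300.1 at 1 week. The ages did not overlap, though Ccna2 stayed above background at 8 weeks, and the change was -0.99 ± 0.12 (limma, adjusted p = 1.21e-04). Its other probe set averaged 44.2 ± 5.17 at 8 weeks and 222 ± 33.4 at 1 week and changed by -1.84 ± 0.11 (limma, adjusted p = 1.65e-06), so 2 probe sets of 1 gene gave the same direction and different sizes. Cks2, a small subunit that binds Cdk1, read 42.6, 52.1, 55.4 and 46.7 at 8 weeks and from 148 through a median of 198 to 260.2 at 1 week. It changed by -1.57 ± 0.15 on the log2 scale, without overlap, and its second probe set fell alike (-1.56 ± 0.15).

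Aurka, the kinase of spindle poles, read 75.4, 67.1, 64.6 and 63.9 at 8 weeks, against 77.7 to 131 with a median of 110.5 at 1 week. The highest array at 8 weeks and the lowest at 1 week nearly met, and the smaller change of -0.54 ± 0.11 (limma, adjusted p = 0.00306) lost its call on the deposited scale (-0.14) and without the 4 arrays (-0.37). Foxm1, a transcription factor of late cell cycle genes, was above background at both ages, with 285, 222, 247 and 228 at 8 weeks and 228 to 323 with a median of 264 at 1 week. The ages overlapped and the gene did not pass by this probe set (-0.13 ± 0.11, limma, adjusted p = 0.373). A probe set annotated to Foxm1, Pebp1 and Tex52 together, whose signal cannot be assigned to 1 gene, averaged 85.3 ± 13.3 (SD, n = 4) at 8 weeks and 128 ± 18.3 (SD, n = 6) at 1 week and was lower without overlap (-0.48 ± 0.11, limma, adjusted p = 0.00427). The filter left out Ccnb2, Plk1 and Melk. Ccnb2, cyclin B2, the partner of Cdk1, had 3.82, 10.5, 6.76 and 14.1 at 8 weeks, all far below background, and a lowest of 65.7, a median of 110.5 and a highest of 124 at 1 week. In the fit of all probe sets it fell (-1.96 ± 0.14, adjusted p = 2.55e-05). Plk1, a kinase with roles from spindle poles to cytokinesis, averaged 39.5 ± 9.65 at 8 weeks and 89.96 ± 25.5 at 1 week and also fell there (-0.82 ± 0.19, adjusted p = 0.0106), a call lost on the deposited scale (-0.48) and without the 4 arrays (-0.52). Melk, a kinase of proliferating progenitors, was below background on every array, with means of 1.30 at 8 weeks and 6.12 at 1 week. Its call in the fit of all probe sets (-0.25 ± 0.08, adjusted p = 0.0357) was lost under 14 of 21 alternatives, among them leaving out any 8-week array (-0.25 to -0.23).

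The spindle checkpoint and the anaphase-promoting complex had 6 measured genes, of which 2 were above background at 8 weeks and 4 at 1 week. Of the 3 that passed the filter 2 fell, and 5 of 6 fell in the fit of all probe sets. Cdc20, the activator that brings substrates to the complex, read 84.4, 89.1, 107 and 111 at 8 weeks, against a lowest of 177, a median of 211 and a highest of 275 at 1 week. Every 8-week array was above background and below every 1-week array, with a change of -0.97 ± 0.12 (limma, adjusted p = 1.12e-04). The next brightest Cdc20 probe set was below background at 8 weeks, with means of 65.3 ± 13.3 at 8 weeks and 130 ± 38.4 at 1 week. Mad2l1, the checkpoint protein that holds Cdc20 back, read 55.4, 38.6, 60.3 and 51.4 at 8 weeks and 76.05 to 136 with a median of 129 at 1 week. It was below background on each 8-week array and changed by -0.90 ± 0.13 on the log2 scale (limma, adjusted p = 3.04e-04).

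Ube2c, the ubiquitin-conjugating enzyme of the complex, had 5.04, 6.29, 6.85 and 17.5 at 8 weeks and a lowest of 118, a median of 167 and a highest of 213 at 1 week. The filter left it out by its mean over all arrays, although each 1-week array was above background. Its change of -2.51 ± 0.15 in the fit of all probe sets (adjusted p = 1.16e-05) was exceeded only by that of Cdk1 in the set. The checkpoint kinases Bub1 and Bub1b were below background on every array, Bub1 with means of 3.30 at 8 weeks and 29.02 at 1 week, Bub1b with 9.60 at 8 weeks and 35.97 at 1 week. Both were lower there by the same fit (Bub1 -0.90 ± 0.16, adjusted p = 0.00264, and Bub1b -0.75 ± 0.11, adjusted p = 7.84e-04), and both calls were lost without the 4 arrays (-0.98 for Bub1 and -0.80 for Bub1b). Cdca3, an adaptor through which the Wee1 kinase is degraded, read 153, 159, 136 and 128 at 8 weeks and 102 to 231 with a median of 153 at 1 week. Its ages overlapped and it did not pass (-0.13 ± 0.12, limma, adjusted p = 0.413). A dimmer Cdca3 probe set that the filter left out averaged 33.01 ± 9.35 at 8 weeks and 103 ± 24.4 at 1 week and fell in the fit of all probe sets (-1.14 ± 0.17, adjusted p = 0.00118), so probe sets of this gene disagreed.

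Centromere and kinetochore genes numbered 6, with 1 above background at 8 weeks and 4 at 1 week. Only Cenpf, a large kinetochore and nuclear matrix protein gene, passed the filter. It read 95.9, 79.8, 70.2 and 78.9 at 8 weeks, against 119 to 179.9 with a median of 161 at 1 week, and changed by -0.75 ± 0.12 without overlap (limma, adjusted p = 6.93e-04), a call lost on the deposited scale (-0.32). Its other probe set did not pass, with means of 88.9 ± 11.5 at 8 weeks and 85.4 ± 14.7 at 1 week (0.05 ± 0.12, limma, adjusted p = 0.759). In the fit of all probe sets 5 of the 6 genes were lower. Cenpa, the histone variant that marks centromeres, averaged 13.2 ± 8.64 at 8 weeks and 78.3 ± 16.9 at 1 week (-1.47 ± 0.17, adjusted p = 2.41e-04). The Ndc80 complex, which grips microtubules, was read by Ndc80, Nuf2 and Spc25. Nuf2 averaged 50.6 ± 8.47 at 8 weeks and 84.04 ± 13.01 at 1 week and was lower (-0.53 ± 0.11, adjusted p = 0.00715), but not on the deposited scale (-0.18) or without the 4 arrays (-0.32). Spc25 ran from 18.2 to 208 at 1 week with a median of 128, against a mean of 26.9 ± 13.5 at 8 weeks. The ages overlapped, and its call (-1.39 ± 0.43, adjusted p = 0.0396) was lost under 9 of 21 alternatives. These included leaving out replicate 1 or 2 labelled female (-1.42 and -1.32) or replicate 2 labelled male (-1.14) at 8 weeks, and replicate 2 or 3 labelled female (-1.33 and -1.31) or replicate 1 labelled male (-1.37) at 1 week. Ndc80 itself, below background on every array with means of 13.8 at 8 weeks and 30.1 at 1 week, did not pass (adjusted p = 0.0605). Cenpe, a kinetochore motor gene, was also below background throughout, with means of 6.30 at 8 weeks and 20.3 at 1 week (-0.53 ± 0.13, adjusted p = 0.0145), and its call was lost without replicate 2 labelled female (-0.49) or replicate 1 labelled male (-0.47) at 8 weeks and without the 4 arrays (-0.43).

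Genes of mitotic chromosomes and of the passenger complex, which corrects faulty attachments, had 5 measured members, 1 above background at 8 weeks and 5 at 1 week, and all 5 were lower in the fit of all probe sets. Top2a, the topoisomerase that untangles chromosomes, read 24.6, 27.4, 39.2 and 28.6 at 8 weeks and a lowest of 132, a median of 239 and a highest of 323 at 1 week. No 8-week array reached background and no 1-week array was below it (-2.20 ± 0.18, limma, adjusted p = 7.66e-06). Mki67, whose protein Ki-67 is the standard marker of cycling cells, had 11.8, 16.4, 7.26 and 9.10 at 8 weeks, against a lowest of 82.8, a median of 174 and a highest of 276 at 1 week. It was left out by the filter and fell in the fit of all probe sets (-2.46 ± 0.26, adjusted p = 1.65e-04). Birc5, the passenger protein survivin, had 4.46, 7.12, 19 and 6.71 at 8 weeks and 60.99 to 202 with a median of 100.4 at 1 week. All of its 8-week arrays were below every 1-week array (-2.04 ± 0.25, adjusted p = 3.60e-04).

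Aurkb, the kinase of the passenger complex, had 86.98, 84.4, 87.2 and 85.2 at 8 weeks and 126 to 145 around a median of 137 at 1 week. It stayed above background at 8 weeks and changed by -0.54 ± 0.07 on the log2 scale (limma, adjusted p = 1.37e-04), a call lost on the deposited scale (-0.11). Cdca5, sororin, which holds sister chromatids together, averaged 40.7 ± 5.39 at 8 weeks and 101 ± 16.01 at 1 week and fell (-0.94 ± 0.11, adjusted p = 2.29e-04).

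All 4 genes of spindle motors and assembly factors were above background at 1 week and 1 was at 8 weeks. The 2 that passed the filter fell with overlapping ages. Kif22, a motor that pushes chromosome arms from the poles, read 104, 148, 162 and 134 at 8 weeks, against a lowest of 128, a median of 269 and a highest of 298 at 1 week (-0.73 ± 0.20, limma, adjusted p = 0.0121). Its lowest 1-week array was replicate 1 labelled male, the only 1-week array inside the 8-week range. The call was lost on the deposited scale (-0.27), without the 4 arrays (-0.47) and without replicate 1 labelled female at 8 weeks (-0.62), and the change was 0.074 when replicate 1 labelled male was the sole array at 1 week. A dimmer Kif22 probe set, below background on every array, fell without overlap in the fit of all probe sets (-0.80 ± 0.09, limma, adjusted p = 2.96e-04), and another did not pass (-0.33 ± 0.26). Nusap1, a spindle microtubule protein gene, read 42, 49.05, 62.2 and 44.2 at 8 weeks and 53.02 to 152 with a median of 124 at 1 week. Replicate 1 labelled male was again the low 1-week array, and the gene changed by -0.91 ± 0.19 (limma, adjusted p = 0.00347). Kif11, the motor that separates spindle poles, averaged 38.5 ± 8.95 at 8 weeks and 93.99 ± 34.6 at 1 week, and Tpx2, an activator of Aurka, 21.4 ± 3.66 at 8 weeks and 90.2 ± 28.2 at 1 week. Both were lower in the fit of all probe sets, Kif11 with a change of -0.87 ± 0.21 (adjusted p = 0.0122) and Tpx2 with -1.29 ± 0.18 (adjusted p = 8.16e-04). The Kif11 call was lost on the deposited scale (-0.54), without the 4 arrays (-0.96) and without replicate 2 labelled male at 8 weeks (-0.74).

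Central spindle and cytokinesis genes were the role group with a member in each direction. Of 6 genes, 2 were above background at 8 weeks and 3 at 1 week, and of the 3 that passed the filter 2 fell and Anln rose. Prc1, which bundles the microtubules of the central spindle, read 57.5, 57.2, 68.3 and 28.1 at 8 weeks, against a lowest of 136, a median of 176 and a highest of 261 at 1 week. Each 8-week array was below background and each 1-week array above it (-1.48 ± 0.21, limma, adjusted p = 2.52e-04). Racgap1, a subunit of the centralspindlin complex, read 118, 110.2, 107 and 133 at 8 weeks and 167 to 206 with a median of 182 at 1 week. By this probe set it was above background on every array and changed by -0.55 ± 0.08 (limma, adjusted p = 4.32e-04), a call lost on the deposited scale (-0.10). The other Racgap1 probe set was below background on every 8-week array, with means of 32.7 ± 5.12 at 8 weeks and 68.9 ± 15.8 at 1 week. The centralspindlin partner of Racgap1, the motor gene Kif23, averaged 12.01 ± 6.94 at 8 weeks and 93.1 ± 36.8 at 1 week (-1.65 ± 0.24, adjusted p = 9.94e-04). The other Kif23 probe sets, below background on every array, did not pass in the fit of all probe sets (-0.12 ± 0.10 and -0.21 ± 0.10, limma, adjusted p = 0.426 and 0.143). Ect2, which activates RhoA at the cleavage site, was below background on every array, with means of 3.54 ± 0.964 at 8 weeks and 46.5 ± 14.8 at 1 week (-1.32 ± 0.16, adjusted p = 3.67e-04). Kif20a, a motor of the central spindle, was too, with 9.93 ± 8.02 at 8 weeks and 32.8 ± 3.17 at 1 week (-0.77 ± 0.15, adjusted p = 0.00396), a call lost without the 4 arrays (-0.72).

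Anln encodes anillin, which links actin, myosin and septins at the cleavage furrow and is also known as a protein of mature myelin, where it organises septin filaments. It read 162, 249.9, 281 and 211 at 8 weeks, and at 1 week 34.6, 51.7 and 69.0 in replicates 1 to 3 labelled female and 37.8, 56.7 and 44.9 in those labelled male. Every 8-week array was above background and every 1-week array below it, the reverse of Cdk1, Top2a and Prc1. The mean was 226 ± 51.2 (SD, n = 4) at 8 weeks and 49.1 ± 12.8 (SD, n = 6) at 1 week, and the log2 change of 1.76 ± 0.16 (limma, adjusted p = 1.60e-05) kept its direction and call in 23 of 23 alternatives, between 1.14 and 2.17. Summed levels of 10 measured mature oligodendrocyte markers, of 14 listed, were 14868, 18139, 19560 and 16492 on the 8-week arrays and from 2577 to 11712 at 1 week, with none of the 10 below background on all arrays. Of the 9 that passed the filter 7 rose and 2 did not pass, where 22.1% of all probe sets that passed were higher. The 4 arrays at 8 weeks had the same order by this sum as by Anln. The 6 at 1 week did not, with Anln highest in replicate 3 labelled female and the sum highest in replicate 2 labelled female. The part of oligodendrocytes in the Anln difference was not tested.

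**Figure D2:**
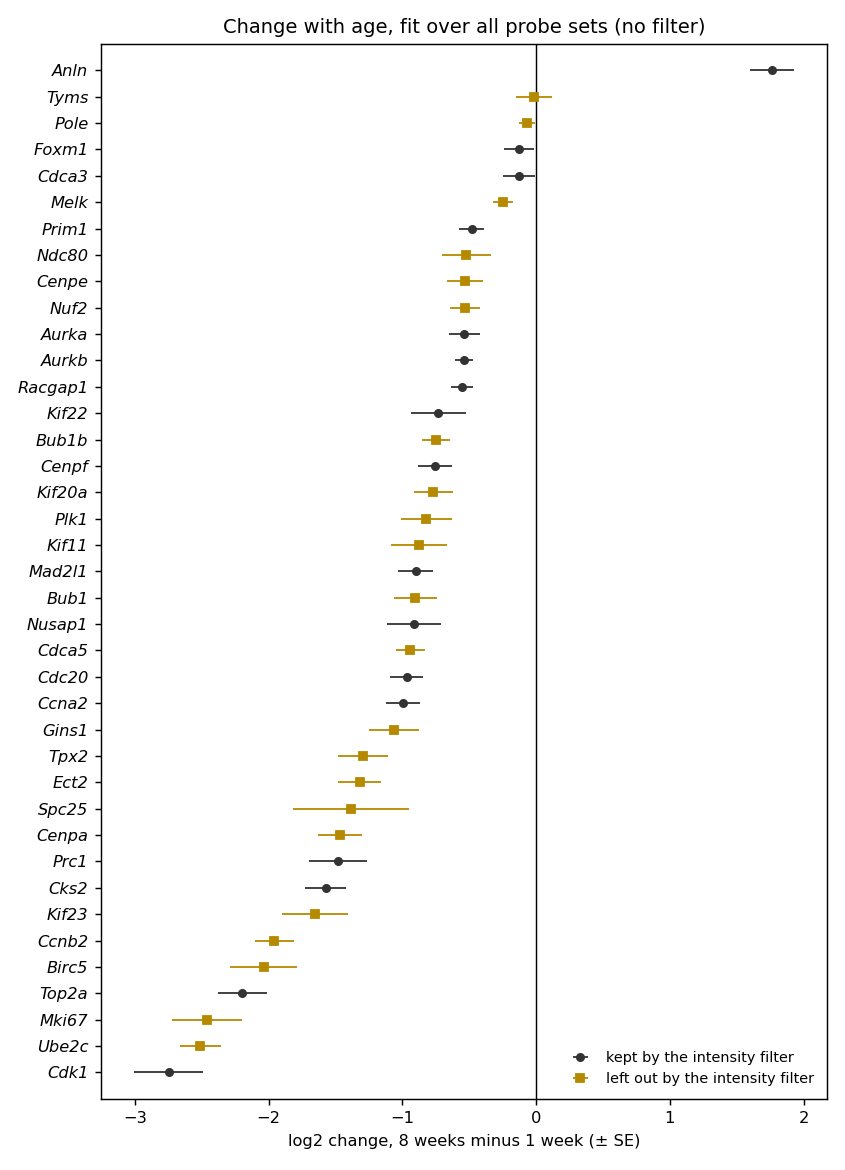
Change of each of the 39 genes between 8 weeks and 1 week, as log2 difference ± SE from the fit of all probe sets, for genes kept (circles) and left out (squares) by the intensity filter. Anln lies right of 0 at 1.76 and the other genes lie left of it, down to -2.75 for Cdk1.

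Of 4 measured genes of DNA synthesis and chromatin assembly, 1 was above background at each age, and 2 were lower in the fit of all probe sets. Prim1, the catalytic subunit of primase, read 176, 139, 146 and 164 at 8 weeks and 208 to 251 with a median of 224 at 1 week. It was above background on every array and changed without overlap by -0.48 ± 0.09 on the log2 scale (limma, adjusted p = 0.00178), but its call was lost with scaling to spike-in controls (-0.34) and on the deposited scale, where the change was near 0. Gins1, a subunit of the replicative helicase, was below background throughout and averaged 12.4 ± 6.96 at 8 weeks and 52.8 ± 16.1 at 1 week (-1.06 ± 0.19, adjusted p = 0.00251), a call lost without the 4 arrays (-0.99). Tyms, thymidylate synthase, averaged 15.2 ± 7.79 at 8 weeks and 15.2 ± 4.35 at 1 week, with overlapping ages, and missed the threshold (-0.02 ± 0.13, adjusted p = 0.944). A probe set annotated to both Tyms and its pseudogene Tyms-ps, whose signal cannot be assigned to 1 gene, averaged 50.3 ± 13.8 (SD, n = 4) at 8 weeks and 101 ± 26.0 (SD, n = 6) at 1 week and was lower without overlap (-0.74 ± 0.17, limma, adjusted p = 0.00500). It and the Foxm1 probe set with several symbols stand outside the counts of members. Pole, the catalytic subunit of DNA polymerase epsilon, averaged 2.69 at 8 weeks and 4.02 at 1 week, far below background, and did not pass (adjusted p = 0.445).

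The 6 arrays at 1 week differed among themselves across the set. Genes above background numbered 11 and 10 on the 8-week arrays labelled female and 9 and 10 on those labelled male, against 24, 27 and 27 on the 1-week arrays labelled female and 20, 27 and 25 on those labelled male. The summed level of the set without Anln was 1908, 1843, 1956 and 1734 at 8 weeks. At 1 week it was 3989, 5148 and 5721 in the arrays labelled female and 3569, 5216 and 4570.0 in those labelled male. Replicate 1 of each label was thus the lowest at 1 week, and every 1-week sum was above every 8-week sum. Among the 28 genes above background at 1 week, the lowest 1-week value was in replicate 1 labelled male for 13 and in replicate 1 labelled female for 10, and the highest was in neither of them for any gene.

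Markers of granule progenitors and young granule cells, a lineage whose progenitors divide in the early cerebellum, were measured for 12 of 14 listed genes. Their summed level was 4871, 4619.9, 2662 and 5775 on the 8-week arrays, and at 1 week 2967, 5123 and 6236 in the arrays labelled female and 2895, 4737 and 4370.3 in those labelled male. The lowest 1-week sums were thus in the same replicates 1 as those of the division genes. Those 2 arrays also had the lowest 1-week sums of mature cerebellar neuron, astrocyte and mature oligodendrocyte markers. Their neuroblast sums went the other way and were the highest at 1 week, 8918 in the array labelled female and 9010.3 in the one labelled male. In the remaining marker lists the 2 arrays were neither both lowest nor both highest. What these arrays share was not tested. The 8-week sums of the granule progenitor and young granule cell markers overlapped the 1-week sums, with none of the 12 below background on all arrays. Of 10 that passed the filter 3 fell (Atoh1, Mycn and Ccnd2), 1 rose (Zic2) and 6 did not pass. Among all probe sets that passed, 24.0% were lower and 22.1% higher, and the counts of the other marker lists stand beside the same shares. The brightest of the 12 at 8 weeks were Zic1, Neurod1 and Ptch1, with means of 1770, 901 and 587, and none of them passed. The sum is therefore not a measure of dividing cells alone. The sum of 9 mature cerebellar neuron markers ran from 4750.4 to 17888 at 8 weeks and from 1817 to 4935 at 1 week. Markers of radial glia and progenitors (10 measured of 10, Sox1 below background on all arrays) summed to 2079.8 to 2383 at 8 weeks and 4982 to 6651 at 1 week. Most of each 1-week sum was Fabp7, a fatty acid binding protein of radial glia. It had a mean of 448 ± 44.4 (SD, n = 4) at 8 weeks and 3514 ± 260.3 (SD, n = 6) at 1 week, so the sum mainly follows this 1 gene. Of the 9 that passed the filter 5 fell, Prom1 rose (0.72 ± 0.15) and 3 did not pass. Nes, 1 of these 3, averaged 231 at both ages. Neuroblast markers (8 of 8) summed to 1059 to 1444 at 8 weeks and 6971 to 9010.3 at 1 week, and all 6 that passed the filter fell. Oligodendrocyte precursor markers summed to 2808 to 3280.1 at 8 weeks and 3702 to 4778 at 1 week (7 of 8), endothelial markers to 1191 to 1285 at 8 weeks and 1549 to 1834 at 1 week (7 of 8), and meningeal and mural markers to 2373 to 3038 at 8 weeks and 4092 to 12112 at 1 week (9 of 9). Microglial markers ran the other way, at 3440.4 to 4602 at 8 weeks and 2504 to 2961 at 1 week (10 of 10, Aif1 and Itgam below background on all arrays), and the 8 that passed the filter rose. Astrocyte markers (9 of 9) were mixed, with sums of 9265 to 9726 at 8 weeks and 5430.2 to 7770.5 at 1 week, while 4 genes rose, 1 fell and 4 did not pass. Erythroid markers summed to 132 to 194 at 8 weeks and 150.2 to 497 at 1 week (4 of 6, Hba-a1 and Epb42 below background on all arrays). The part of any of these cell types in the fall of the division genes was not tested.

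**Figure D3:**
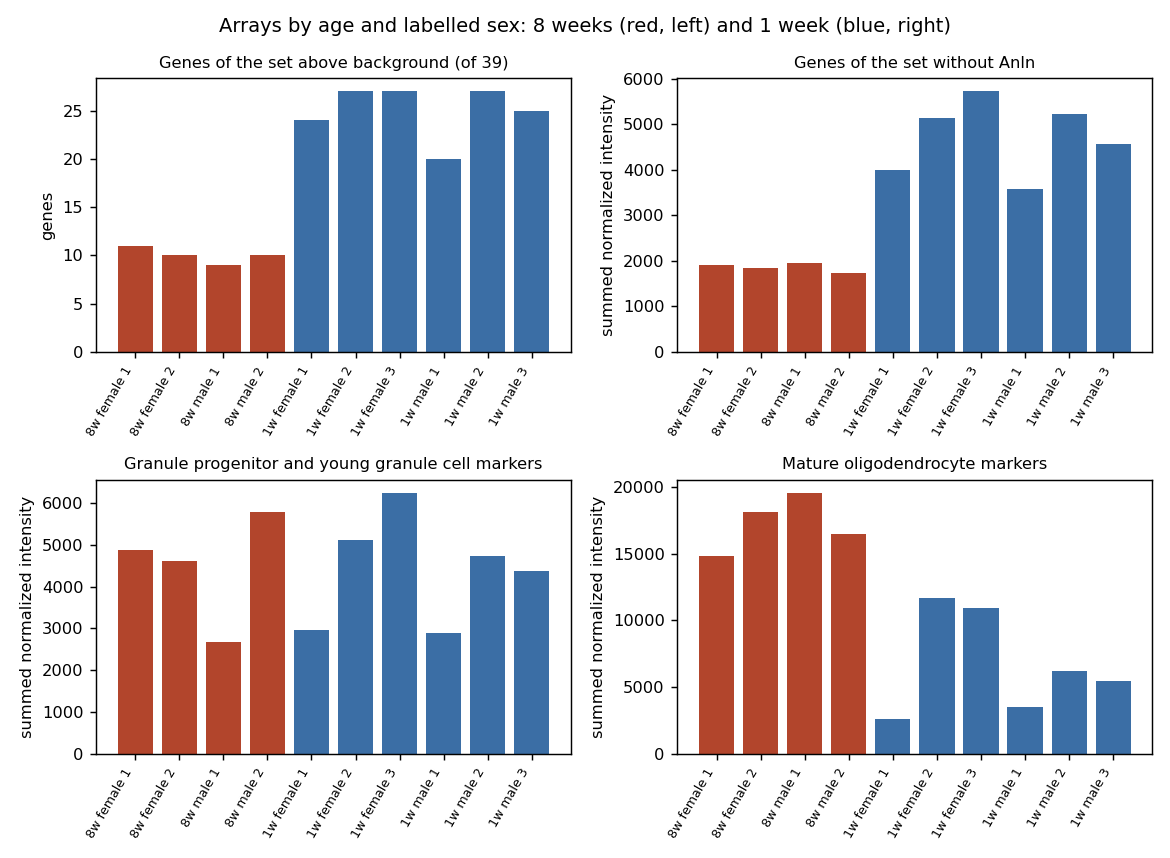
Bars give, for each array at 8 weeks (left) and at 1 week (right), the number of the 39 genes above background, the summed normalized intensity of the set without Anln, and the summed normalized intensity of granule progenitor and young granule cell markers and of mature oligodendrocyte markers. At 1 week, replicates 1 of both labels have the lowest bars in all 4 panels, 24 and 20 genes above background in the first.

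Related genes outside the set were counted by list, 1 probe set a gene. The counts of every list below stand beside 24.0% lower and 22.1% higher among all probe sets that passed the filter. On the deposited scale 629 of all probe sets were lower and 8670 higher, so rises there are not particular to a list. Quantile normalization sets each gene against all others on its array, and of the 34 related genes called, 9 turned sign and 19 lost their call on the deposited scale, while 14 lost it with scaling to spike-in controls and 13 without the 4 arrays. Among 19 measured other spindle genes 10 passed the filter, of which 5 fell and 0 rose, with a median change of -0.32 against -0.02 for all probe sets that passed, where on the deposited scale 1 fell and 1 rose and with scaling to spike-in controls 2 fell and 0 rose by limma. Aspm, a spindle pole protein gene of neural progenitors, averaged 56.7 ± 15.6 at 8 weeks and 139 ± 26.6 at 1 week (-1.01 ± 0.14, limma, adjusted p = 2.49e-04), and Plk4, the kinase of centriole duplication, changed by -0.60 ± 0.08. Ckap2 (-0.50 ± 0.14) and Hmmr (-0.49 ± 0.15), which bind spindle microtubules, fell with overlapping ages. Of these 4 named genes, only Aspm kept its call on the deposited scale. Of 12 other kinetochore and checkpoint genes that passed the filter, of 20 measured, 4 fell and 1 rose, with a median of -0.02, where on the deposited scale 0 fell and 6 rose. Cenpt (-0.75 ± 0.10) and Cenpn (-0.61 ± 0.14), subunits of the inner kinetochore, Ska2 (-0.39 ± 0.07) of the outer kinetochore and Cenpm (-0.34 ± 0.11) were the ones that fell, Ska2 and Cenpm with a change above 0 on the deposited scale. Pttg1, securin, which holds separase inactive until anaphase, rose, with means of 2165 ± 146 at 8 weeks and 1444 ± 121 at 1 week (0.58 ± 0.08, limma, adjusted p = 3.41e-04).

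Condensin and cohesin genes that passed the filter numbered 13, of 15 measured. Of these, 4 fell, all of them condensin subunits, 0 rose and 9 did not pass (median -0.09), where on the deposited scale 2 fell and 7 rose. They were Ncaph (-1.01 ± 0.26), Smc4 (-0.99 ± 0.16), Smc2 (-0.71 ± 0.11) and Ncapd2 (-0.49 ± 0.10). Anaphase-promoting complex genes fell in 6 of 12 that passed the filter, and 0 rose (median -0.32), where on the deposited scale 0 fell and 5 rose and with scaling to spike-in controls 1 fell. The steepest was Ube2s (-0.71 ± 0.08), the enzyme that extends ubiquitin chains after Ube2c, followed by Fzr1 (-0.47 ± 0.09), the activator that takes over from Cdc20, Anapc11 (-0.37 ± 0.11) and Anapc5 (-0.37 ± 0.09), and of these Fzr1, Anapc11 and Anapc5 had a change above 0 on the deposited scale. Subunits of this complex also act in neurons that no longer divide.

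Mitotic entry kinases and phosphatase regulators went both ways, 3 lower and 3 higher of 8 that passed the filter. The Cdk1 subunit Cks1b (-1.07 ± 0.10), the inhibitory kinase Pkmyt1 (-0.89 ± 0.12) and the activating phosphatase Cdc25b (-0.32 ± 0.09), which turned sign on the deposited scale, fell. Arpp19, an inhibitor of the phosphatase PP2A, averaged 1339 ± 188 at 8 weeks and 376 ± 54.4 at 1 week (1.77 ± 0.10, limma, adjusted p = 1.05e-06), about as large a rise as that of Anln. Wee1, an inhibitory kinase of Cdk1, rose with overlapping ages (0.90 ± 0.15), and Ensa, the close relative of Arpp19, rose without (0.51 ± 0.07).

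Septins and anillin partners had 16 genes that passed the filter, of which 6 rose and 2 fell (median 0.18). Among all probe sets that passed, 22.1% rose and 24.0% fell. On the deposited scale 14 of the list rose and 0 fell, where 8670 of all probe sets rose and 629 fell. Septin4, a septin of myelin as well as of neurons, read 1288, 1566, 1480.4 and 2177 at 8 weeks, against a lowest of 188, a median of 266 and a highest of 386 at 1 week (2.45 ± 0.19, limma, adjusted p = 6.32e-06). All 4 arrays at 8 weeks were above all 6 at 1 week. Cit, citron kinase, which acts with anillin in abscission and has a splice form in neurons of the adult brain, read 357, 385, 303 and 199.99 at 8 weeks and 30.9 to 106 with a median of 52.1 at 1 week (2.01 ± 0.25, limma, adjusted p = 1.07e-04). The array value does not tell its splice forms apart. The other genes of the list that rose were Myh14 (0.86 ± 0.11), Septin11 (0.61 ± 0.15), Rhob (0.34 ± 0.09) and Septin7 (0.34 ± 0.07), while Septin9 (-0.60 ± 0.13) and Septin6 (-0.27 ± 0.08), which turned sign on the deposited scale, fell with overlapping ages.

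**Figure D4:**
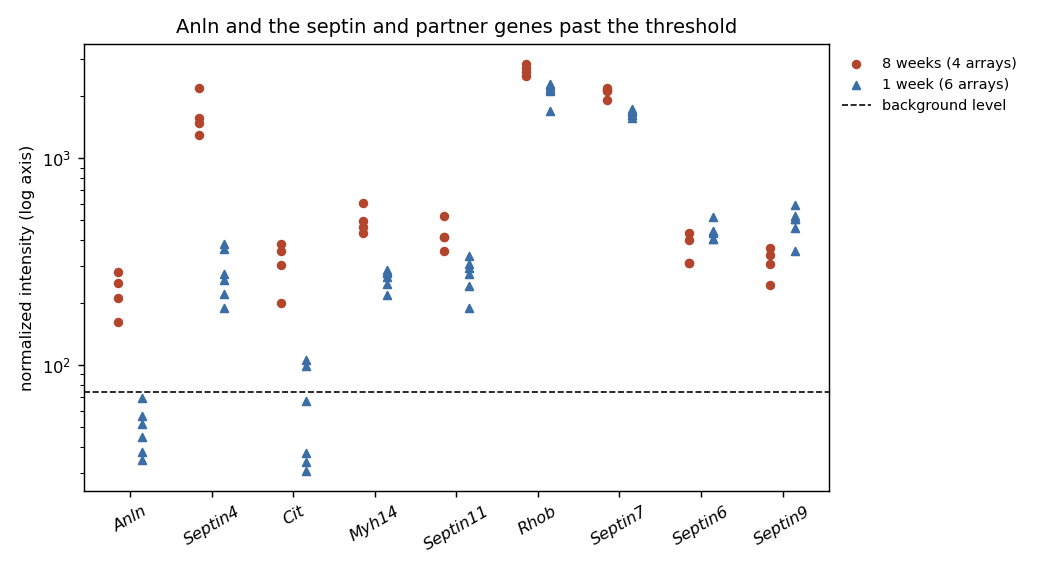
Normalized intensity (log axis) of Anln and of the septin and partner genes past the threshold, with 1 point for each array at 8 weeks (circles, 4 arrays) and at 1 week (triangles, 6 arrays). The dashed line is the background level of 73.9, above which the 8-week arrays of all 9 genes lie, while Anln at 1 week runs from 34.6 to 69.0.

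By labelled sex, 0 of the 22 member probe sets tested passed limma's adjusted test for male minus female over both ages, and 0 had an unadjusted p under 0.05. At 8 weeks, where labels and sex markers matched, these counts were 0 and 0 as well, and for the interaction of age and label 0 and 1. Over all 13576 probe sets 0 passed in each of these contrasts, with 469, 345 and 759 at an unadjusted p under 0.05. Among those not passing was an Xist probe set that at 8 weeks read 1676 and 1405 on the arrays labelled female and 131 and 134 on those labelled male. The fit shares 1 estimate of spread with the 1-week groups, where sex markers oppose the label on the 4 arrays. Counts of 0 here therefore do not show that the sexes are alike. The lowest adjusted p of a member was 0.857, for the interaction. Within the arrays labelled female 17 member probe sets were lower at 8 weeks, and within those labelled male 15, with 1 higher in each. Counts over all probe sets were not taken for the contrasts within a label. As sex markers oppose the label on the 4 arrays, these contrasts do not separate the sexes.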

How the data were processed

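Total RNA of C57BL/6 brain was measured on 10 Affymetrix MOE430A arrays. The deposited values were a linear intensity per probe set, 1 column per array, and the software with which the authors summarised the probes is not given in the sources used here. Of 22690 probe sets, 64 array controls were left out. Intensities were quantile normalized, and 24.2, the 20th percentile of the deposited values, was added before log2, which understates changes of dim probe sets. Probe sets with a mean log2 under the 40th percentile were left out of the main test. Gene symbols came from the platform annotation, with 20380 probe sets given 1 symbol, 691 several and 1555 none. Each gene was read by the single-symbol probe set with the highest mean log2 over all arrays.

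limma 3.58.1 under R 4.3.3 was used for linear models with moderated variances, with a coefficient for each group of age and labelled sex, two-sided p-values, Benjamini-Hochberg adjustment and a threshold of 0.05. The fit was tested on simulated data. The number of arrays limits the precision. The members and all gene lists were chosen with earlier results of these data known. All 42 genes were accounted for by name. Values on every array were to be given for up to 3 bright members of each role, for members that rose, and for those above or nearest to background at 8 weeks. Each related list gave at most 4 named genes that passed in its main direction and at most 2 that passed the other way. Septin11, Rhob, Septin7 and all array values of Ccnb2, Ube2c, Mki67, Birc5, Septin4 and Cit were added after values were seen. Alternatives were other pseudocounts, scalings, filters, background levels, models and variance models, arrays left out and a replicate block. The fit of all probe sets as the value of genes that the filter leaves out, and the related lists under every alternative, were added after seeing the data. Promoter sequences were taken from RefSeq, build GRCm38.p6.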

Additional observations from a re-analysis of the deposited data

Results flagged for a closer look

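Within an age, 6 of 78 combinations of gene and age had a highest or lowest array that stood far from the rest, by Dixon's criterion at 95%, where chance gives about 1 in 20. At 8 weeks Cdk1 read 50.1 in replicate 1 labelled female and at most 13.5 in the other arrays, and Cdca5 read 48.7 in the same array and at most 38.2 in the others. Ube2c read 17.5 in replicate 2 labelled male at 8 weeks and at most 6.85 elsewhere at that age. All of these values are below the background level. At 1 week Ndc80 read 51.8 in replicate 3 labelled female, again below background, and at most 28.4 in the other arrays. Replicate 1 labelled male at 1 week was low for Kif22, at 128 with the next array at 233, and for Nusap1, at 53.0 with the next at 114.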

How the results depend on the processing

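Of the 15 genes called, 9 kept direction and call under every alternative run, and Aurka, Cenpf, Aurkb, Racgap1, Kif22 and Prim1 lost the call under at least 1. Signs turned for Foxm1 (0.37) and Cdca3 (0.34) on the deposited scale, and for Kif22 (0.074) without the 5 arrays whose sex markers do not match their label, which leaves 1 array at 1 week, assumed to vary like those at 8 weeks. On the deposited scale 629 probe sets were lower and 8670.0 higher, against 3254 and 2994 with quantile normalization, and 10 member probe sets were lower and 4 higher, against 17 and 1. Scaled to spike-in controls, 1386 were lower. With age as the only term, 1973 were lower without the 4 arrays whose sex markers oppose their label, with 10 member probe sets among them. Without the 5 arrays 1748 were lower and 1975 higher, with 7 member probe sets lower. The number of member probe sets lower was 46 with no filter, 38 with a filter at the 20th percentile and 3 at the 60th, where 0 were higher by limma because the Anln probe set is then left out. Among all probe sets 3453, 3485 and 2519 were lower in these 3 settings. How many member probe sets the 20th and 60th percentile filters kept was not counted here. A fold change of at least 2 left 6 lower, and the number among all probe sets was not taken. Leaving out each array in turn gave 17 to 21 lower and 1 higher, with 2730 to 3127 of all probe sets lower. With the replicate block, 3054 probe sets were lower and 2847 higher, and 18 member probe sets lower and 1 higher. The labels do not say what a replicate number shares, and deviations of same-numbered arrays correlated between -0.03 and 0.19, above 0.05 in 10 of 13 pairs, and of others between -0.18 and 0.18, above 0.05 in 4 of 24. For 8 of 10 arrays the highest correlation was with an array of the same number, a hint from the data and not from the design, and since not every pair was above 0.1 the numbers were not taken as pairs. Genes above background at 8 weeks numbered 19 with the level at the 25th percentile (36.4) and 5 with a level from genes of other tissues (135). At 1 week they numbered 18 at the 50th percentile (110.1), 15 at the level from other tissues and 18 when every array had to pass. Probe sets above it at 8 weeks numbered 27, 7 and 5 at the 25th percentile, the 50th percentile and the level from other tissues, against 12. At 1 week they numbered 21 at the 50th percentile, 17 at the level from other tissues and 21 on every array, against 35. Shares of all probe sets above these other levels were not taken. Dim genes near background have little room to fall, so their changes are bounded by the pseudocount.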
